A study of Homo sapiens with 24 samples.

Results

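Box H/ACA small nucleolar RNAs (snoRNAs) were followed across 8 groups of sequencing libraries from 293T, a cell line derived from human embryonic kidney. A gene was taken as a member when its symbol was SNORA followed by a digit and its counts, summed over all 24 libraries, reached 100. Of 214 SNORA rows, 81 met the rule and carried 80 symbols, because SNORA50A had 2 rows whose counts differed by at most 1 in any library and which are not separate evidence. The last members inside the minimum were SNORA77 with 105 counts, SNORA81 with 105.58 and SNORA54 with 106. The first outside it were SNORA80B with 89, SNORA71D with 88.33 and SNORA63C with 87, and 63 SNORA rows had no counts at all. All cells carried a short hairpin RNA against DIS3 (DIS3-sh2), and DIS3 was put back either as the D146N mutant or as the wild-type protein (WT). Cytoplasmic RNA from gradient fractions 3, 4, 7 and 8 of each genotype was depleted of ribosomal RNA and sequenced, with 3 replicates per group. The labels do not say whether fractions were numbered from the top or from the bottom of the sucrose gradient, and no library of cells without the hairpin was analysed here.

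An H/ACA snoRNA folds into hairpins followed by the boxes H and ACA and is bound by dyskerin (DKC1), NOP10, NHP2 and GAR1. Most of these particles guide the isomerisation of uridine to pseudouridine in ribosomal RNA, and a few, such as SNORA73A and SNORA73B (U17), take part in processing of its precursor. Human members usually lie in introns of host genes, many of which encode ribosomal proteins or are noncoding snoRNA host genes, and are released by trimming of the excised intron. DIS3 is a ribonuclease of the RNA exosome, with an exonuclease domain and an endonuclease (PIN) domain that D146N disables.

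Library totals ran from 21150619 to 32989418 counts. The 10 most abundant rows made up 76.6% and 76.9% of the counts in D146N fractions 3 and 4, but 41.9% and 42.7% in D146N fractions 7 and 8. For WT libraries the same percentages were 46.8 and 46.5 in fractions 3 and 4, then 72.0 and 69.4 in fractions 7 and 8. The CPM (counts scaled to the same total in every library) of most other genes therefore moved against those rows, and fold changes below are after TMM scaling, which sets the typical gene near 0, unless stated otherwise. Not only the members but most genes, the 10 most abundant rows and the cell markers below turned round between the genotypes. A reversed order of fraction numbers or exchanged labels in 1 genotype would do the same and cannot be told apart from an effect of D146N in these files, which bears on every comparison at the same fraction number and on the interaction. Fractions 3 and 4 of a genotype, and likewise fractions 7 and 8, differed no more than replicates of 1 fraction did, and edgeR's quasi-likelihood test with Benjamini-Hochberg adjustment called 0 of 18907 genes between neighbours in either genotype. DESeq2 called 0 of the members there, and at an unadjusted p under 0.05 edgeR had 0 and 5 members in D146N (4 against 3, 8 against 7) and 2 and 1 in WT. WT fraction 8 replicate 3 stood apart, at 18.2 to 19.9 chi-square units per gene from the other libraries of WT fractions 7 and 8, which lay 1.38 to 1.62 from each other. The 5 markers taken for 293T summed to 231 to 249 CPM in D146N fractions 7 and 8 and WT fractions 3 and 4, and to 19.2 to 23.9 CPM in the other 4 groups. In the same groups 5 liver markers summed to 247 to 269 CPM and to 12.0 to 31.2 CPM, led by ALB and AFP, so the libraries labelled 293T also held liver transcripts, whose part in the results was not tested. PTPRC, a marker of blood, was at 0 in 7 of the 8 groups, but 4 blood markers including it summed to 0.777 to 2.14 CPM. In D146N fractions 7 and 8 and WT fractions 3 and 4, 3 fibroblast markers summed to 10.3 to 14.1 CPM. They summed to 0.419 to 0.876 CPM in the other 4 groups. DIS3 itself averaged 101 CPM in D146N fraction 7 and 98.4 CPM in WT fraction 3, where gene counts cannot tell the allele. At equal fraction numbers its log2 change in D146N against WT was -0.74, -0.60, 1.41 and 1.33 in fractions 3, 4, 7 and 8, all called.

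The members together were rare in these libraries. They held 104851 counts, or 0.0168% of all, and 59 of 81 averaged under 1 CPM over the 24 libraries (median 0.502 CPM). Their annotated lengths ran from 121 to 250 bases, with a median of 135. A count of 0 allows up to 3 counts, which correspond to 0.0909 CPM in the deepest library and 0.142 CPM in the shallowest. The labels mention no molecular identifiers, so these limits cover counting error only. SNORA12 alone took 30.6% of the member counts and the 4 leading members 57.2%.

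SNORA12 lies on chromosome 10 at 100237156 to 100237302 (GRCh38.p14) inside CWF19L1, a gene related to a yeast splicing factor, and was the most abundant member per length at 336 CPM per kilobase. In D146N it reached 24.5, 22.01 and 28.3 CPM in fraction 3, 22.6, 28.4 and 34.2 in fraction 4, 39.3, 44.8 and 41.3 in fraction 7, and 45.5, 42.5 and 31.5 in fraction 8. In WT it reached 58.6, 46.6 and 51.7 CPM in fraction 3, 52.7, 47.8 and 45.5 in fraction 4, 65.5, 76.1 and 87.5 in fraction 7, and 83.1, 89.2 and 76.3 in fraction 8. All 3 D146N libraries lay below all 3 WT libraries in each of the 4 fractions on this unscaled level. No exact permutation test of 3 against 3 libraries can fall below p = 0.1. SNORA12 took 15.9% ± 1.52 of member counts in D146N fraction 3 and 39.97% ± 2.26 in WT fraction 3 (SD, n = 3 each), but 35.3% ± 3.56 in D146N fraction 8 and 32.5% ± 5.25 in WT fraction 8 (SD, n = 3 each).

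SNORA73B, second per length at 140 CPM per kilobase, lies on chromosome 1 at 28508558 to 28508762 in SNHG3, a noncoding snoRNA host gene that overlaps RCC1. Its D146N levels were 38.9, 40.2 and 43.0 CPM in fraction 3, 42.8, 36.5 and 48.0 in fraction 4, 11.8, 14.8 and 14.6 in fraction 7, and 17.0, 13.6 and 14.2 in fraction 8. Its WT levels were 13.8, 13.5 and 11.1 CPM in fraction 3, 14.9, 11.4 and 13.4 in fraction 4, 36.2, 43.5 and 46.2 in fraction 7, and 41.6, 42.1 and 64.2 in fraction 8. Fractions 3 and 4 were thus the high ones in D146N and fractions 7 and 8 in WT, with no overlap of the 6 libraries on each side, and the highest value came from the WT library that stood apart. SNORA28, SNORA74A, SNORA73A and SNORA23 followed per length, at 38.5, 34.2, 33.4 and 23.1 CPM per kilobase. SNORA28 guides modification of 18S ribosomal RNA, and SNORA74A (U19) acts in precursor processing.

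**Figure D1:**
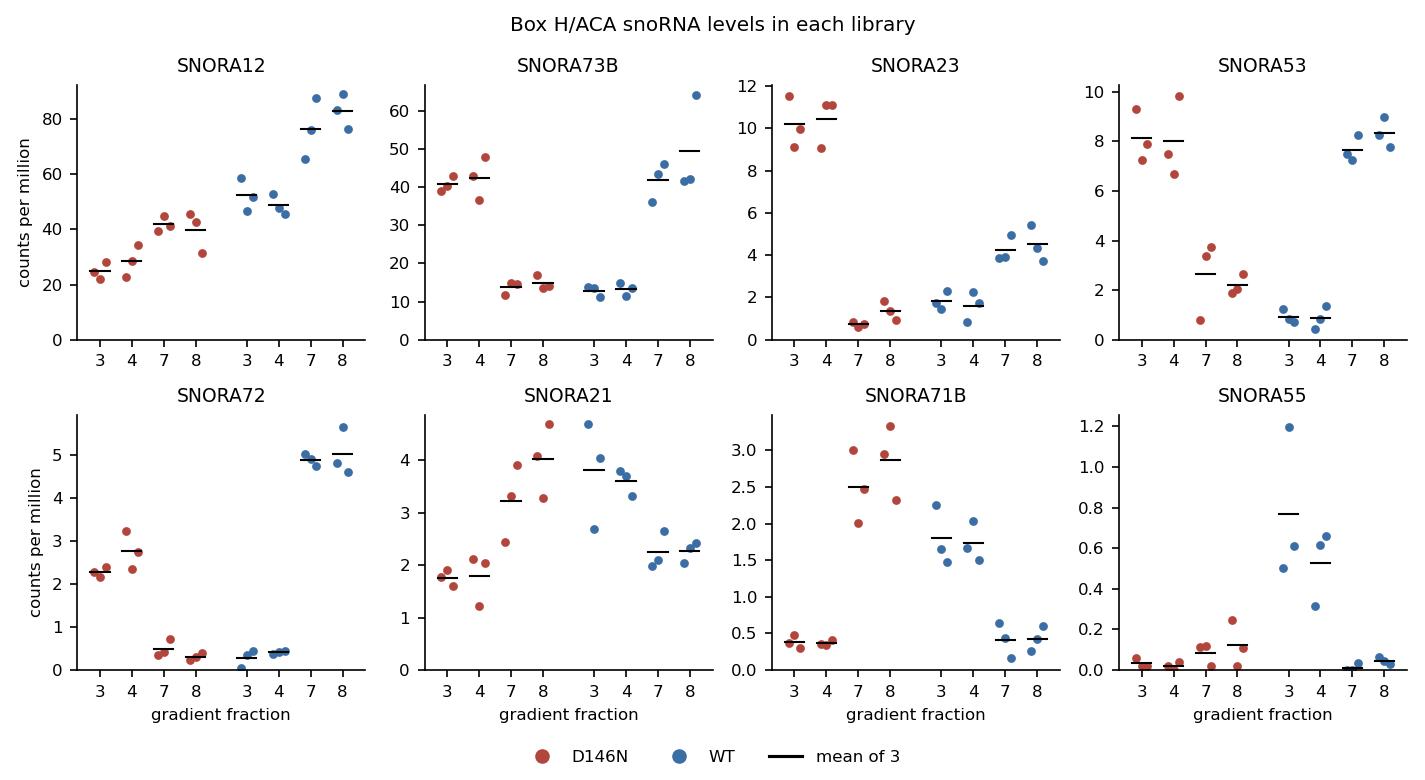
CPM of 8 members in each library against the gradient fraction, with D146N in red and WT in blue, 1 point per library and the mean of 3 as a line; each panel has its own axis from 0. SNORA73B, SNORA23, SNORA53 and SNORA72 were high in D146N fractions 3 and 4 and WT fractions 7 and 8, whereas SNORA21 and SNORA71B were low there.

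The members' share of all counts followed the same sides. It was 0.0157% ± 0.000547 in D146N fraction 3 against 0.0131% ± 0.000773 in WT fraction 3, and 0.0162% ± 0.00161 in D146N fraction 4 against 0.0125% ± 0.000484 in WT fraction 4 (SD, n = 3 each). It was 0.0115% ± 0.000533 in D146N fraction 7 against 0.0228% ± 0.00193 in WT fraction 7, and 0.0112% ± 0.00105 in D146N fraction 8 against 0.0258% ± 0.00259 in WT fraction 8 (SD, n = 3 each). The share was therefore higher in D146N in fractions 3 and 4 and lower in D146N in fractions 7 and 8, without overlap of the libraries, at log2 odds of 0.26, 0.37, -0.99 and -1.20. Each comparison gave p = 0.1 in a two-sided exact permutation test, the smallest that 3 against 3 libraries allow. Without the 10 most abundant rows in the total the log2 odds were 1.45, 1.59, -2.04 and -2.11, and without SNORA12 they were 0.75, 0.81, -1.05 and -1.26, in fractions 3, 4, 7 and 8.

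Set against the typical gene, 60 of 75 tested members were called both lower in fractions 7 and 8 than in fractions 3 and 4 in D146N and higher there in WT. The share of all genes called in both ways was not counted. It cannot exceed the 30.3% of all 18907 genes called lower in D146N. Of the 81 members, 75 passed the filter on low counts, and the 6 that did not were SNORA26, SNORA22B, SNORA2A, SNORA71A, SNORA77B and SNORA81. In D146N, 0 of 75 members were higher and 63 lower in fractions 7 and 8, where 29.9% of all 18907 genes tested were higher and 30.3% lower. In WT, 65 of 75 were higher, against 34.6% of all genes, and 1 was lower, against 39.3% of all genes. With no filter all 81 members were tested, and 0 were higher and 61 lower in D146N, against 17.6% and 17.8% of all genes, and 66 higher and 1 lower in WT, against 21.8% and 22.4%. Their median log2 fold change was -2.84 in D146N and 2.97 in WT over all 81, while the median of all genes in that fit was 0.00 and -0.04.

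The direction relative to the typical gene and the direction on unscaled levels were not the same thing. Scaled by library totals alone, the median of all genes moved to 3.00 in D146N and to -2.83 in WT, and 19 members were higher and 24 lower in D146N, where 88.9% and 4.08% of all genes were. In WT 35 members were then higher and 16 lower, where 7.66% and 83.6% of all genes were. The members' median then was -0.11 in D146N and 0.53 in WT. Its distance from the median of all genes hardly changed, which had to be so, since a change of scaling moves every gene by about the same amount. On unscaled CPM, 15 members were lower in all 6 libraries of D146N fractions 7 and 8 than in all 6 of fractions 3 and 4 and higher in WT fractions 7 and 8, 5 showed the opposite pattern, and 36 overlapped in both genotypes. In all, 12 members lay above and 16 below in D146N without overlap, against 81.3% and 2.97% of 18702 rows with at least 100 counts, and 28 lay above and 9 below in WT, against 5.51% and 73.5%. The 5 with the opposite pattern, which sided with most genes on that level, were SNORA71B, SNORA5C, SNORA10, SNORA52 and SNORA21.

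SNORA72, in an intron of the ribosomal protein gene RPL30, showed the clearest contrast. Its D146N levels were 2.29, 2.16 and 2.41 CPM in fraction 3, 3.23, 2.35 and 2.74 in fraction 4, 0.345, 0.424 and 0.717 in fraction 7, and 0.224, 0.306 and 0.393 in fraction 8. Its WT levels were 0.0403, 0.342 and 0.444 CPM in fraction 3, 0.383, 0.426 and 0.454 in fraction 4, 5.02, 4.91 and 4.74 in fraction 7, and 4.83, 5.65 and 4.60 in fraction 8. The sides did not overlap in either genotype, and every library of WT fractions 7 and 8 exceeded every library of D146N fractions 3 and 4. The fold changes of fractions 7 and 8 over 3 and 4 were -5.56 ± 0.21 in D146N and 6.52 ± 0.20 in WT on the log2 scale (SE), with adjusted p of 7.9e-23 and 6.43e-26 by edgeR's quasi-likelihood test with Benjamini-Hochberg adjustment.

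SNORA23, in IPO7, which encodes a nuclear import receptor, had the largest fall in D146N among members averaging at least 1 CPM. In D146N it reached 11.5, 9.13 and 9.99 CPM in fraction 3, 9.08, 11.1 and 11.1 in fraction 4, 0.827, 0.613 and 0.740 in fraction 7, and 1.86, 1.36 and 0.918 in fraction 8. In WT it reached 1.73, 1.46 and 2.31 CPM in fraction 3, 0.856, 2.25 and 1.75 in fraction 4, 3.89, 3.93 and 4.96 in fraction 7, and 5.43, 4.35 and 3.74 in fraction 8. The D146N range was thus wider than the WT range at both ends. Its log2 fold change was -6.29 ± 0.20 in D146N and 4.04 ± 0.19 in WT (SE).

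SNORA53, in SLC25A3, the gene of the mitochondrial phosphate carrier, had a lowest, median and highest level of 0.804, 2.35 and 3.72 CPM in D146N fractions 7 and 8, against 6.66, 7.69 and 9.82 CPM in D146N fractions 3 and 4. In WT the same 3 values were 7.24, 8.00 and 8.96 CPM in fractions 7 and 8, against 0.428, 0.853 and 1.36 CPM in fractions 3 and 4. Its high sides were alike and its low sides were not. The fold changes were -4.67 ± 0.24 in D146N and 5.83 ± 0.27 in WT (log2, SE). SNORA38 in PRRC2A (-5.55 in D146N and 5.79 in WT), SNORA59B in SLC47A1, SNORA32 in TAF1D (-4.80 in D146N and 5.81 in WT) and SNORA80D in AIMP2 (-4.97 in D146N and 4.40 in WT) had the same directions.

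SNORA55 was the 1 member called lower in fractions 7 and 8 in WT, and in the unfiltered fit 4 others had fold changes below 0 that did not pass the test. SNORA55, in PABPC4, a gene of a cytoplasmic poly(A)-binding protein that a PABPC4 antisense gene also spans, stood at 0, 0 and 0.0329 CPM in WT fraction 7 and 0.0638, 0.0456 and 0.0303 CPM in WT fraction 8, against 0.503, 1.20 and 0.611 CPM in WT fraction 3 and 0.315, 0.615 and 0.659 CPM in WT fraction 4. In D146N it was at or under 0.246 CPM in every library. Its log2 fold change in WT was -1.98 ± 0.84 (SE), with an adjusted p of 0.033 by edgeR's quasi-likelihood test, and the call was lost without WT fraction 8 replicate 3 (-1.79), without 3 other WT libraries in turn (-1.84 to -1.72) and with DESeq2 (-1.92). The value was larger without WT fraction 7 replicate 3 (-3.63), under library totals (-4.43) and under totals without small and mitochondrial RNA rows (-3.78), all called.

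The interaction of genotype and fraction was tested as well, and a reversed fraction order or exchanged labels in 1 genotype cannot be told apart from it. It was lower (D146N minus WT) for 66 of 75 members and higher for 0, against 35.4% and 41.7% of all genes. Over all 81 members in the unfiltered fit it was lower for 67 and higher for 0, against 21.9% and 24.4% of all genes, with a median of -5.86 against 0.50 for all genes. Under library totals 25 members were higher and 32 lower, against 88.1% and 6.41% of all genes. The largest interactions among members averaging at least 1 CPM belonged to SNORA72 (-12.08), SNORA38 (-11.33), SNORA32 (-10.61), SNORA53 (-10.50) and SNORA59B. Leaving out WT fraction 8 replicate 3 gave 64 lower in the interaction, and 62 higher and 0 lower in the WT contrast.

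**Figure D2:**
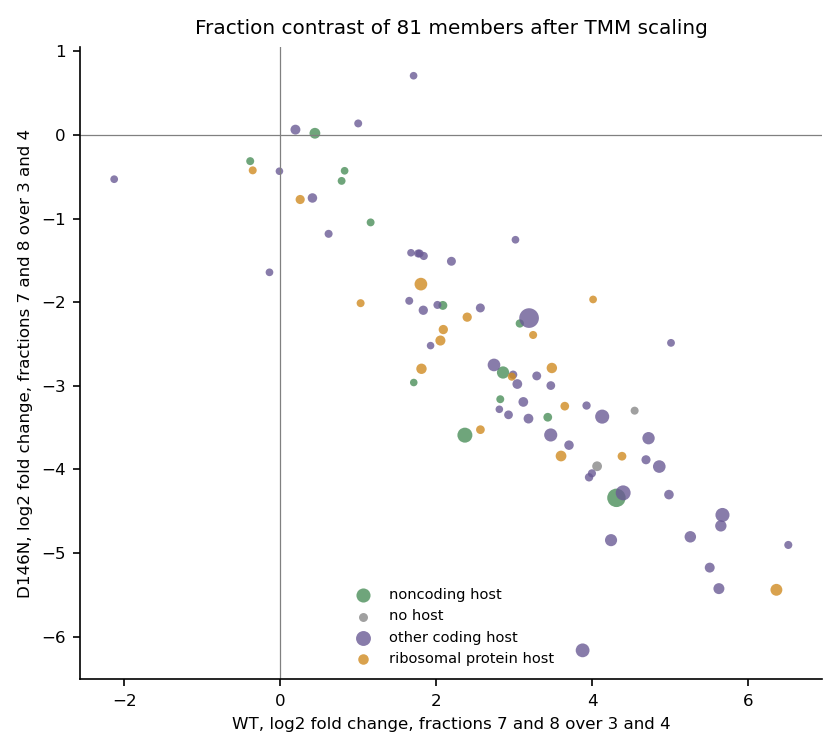
Log2 fold change of fractions 7 and 8 over 3 and 4 in D146N (vertical) against WT (horizontal) for all 81 members, after TMM scaling without a filter on low counts; point area grows with the mean level and colour gives the class of host gene. Most points lie at positive WT and negative D146N values, around medians of 2.97 and -2.84, and members of each host class are spread along the same course.

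At the same fraction number, libraries labelled D146N had more of the members than those labelled WT in fractions 3 and 4 and less in fractions 7 and 8, relative to the typical gene. Whether equal numbers mean equal positions in both gradients is not given in the sources used here. In fraction 3, 53 of 75 members were higher, against 25.8% of all genes, and 0 lower, against 23.9%. For fraction 4 the counts were 54 higher, against 25.7% of all genes, and 0 lower, against 22.8%. For fraction 7 they were 0 higher, against 32.4% of all genes, and 60 lower, against 31.1%. For fraction 8 they were 0 higher, against 32.5% of all genes, and 63 lower, against 32.6%. With all 81 members tested the counts were 55 higher in fraction 3, 56 higher in fraction 4, 61 lower in fraction 7 and 65 lower in fraction 8, with none the other way. The share of all genes in that fit was 13.5% higher and 13.9% lower in fraction 3, 13.6% and 13.3% in fraction 4, 18.5% and 17.2% in fraction 7, and 18.4% and 17.6% in fraction 8. The members had medians of 2.25, 2.45, -3.32 and -3.28 against 0.00 for all genes. Scaled by library totals, 20 members were higher and 23 lower in fraction 3 (3.91% and 84.7% of all genes), 18 and 19 in fraction 4 (3.78% and 84.3%), 11 and 27 in fraction 7 (83.6% and 5.41%), and 8 and 35 in fraction 8 (80.9% and 6.08%). These 4 comparisons share no library with each other but repeat the contrast of fractions above. Without WT fraction 8 replicate 3, 61 members were lower in fraction 8.

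SNORA53 had the largest positive change in fraction 3, at 5.92 ± 0.38, and in fraction 4, at 5.94 ± 0.39 (log2, SE). SNORA38 had the largest negative change in fraction 7, at -6.76 ± 0.33, and SNORA72 in fraction 8, at -6.72 ± 0.29 (log2, SE). SNORA12, whose unscaled level was lower in D146N throughout, was higher by 1.71 ± 0.18 in fraction 3 and lower by -3.80 ± 0.19 in fraction 8 relative to the typical gene (log2, SE), so its direction in fraction 3 flipped with the scaling.

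The sides rich in members were compared with each other although their fraction numbers differ. D146N fractions 3 and 4 against WT fractions 7 and 8 gave 2 of 75 members higher, against 17.1% of all genes, and 20 lower, against 12.1% of all genes. Library totals gave 2 higher and 23 lower, against 12.0% and 15.0% of all genes, and without WT fraction 8 replicate 3 there were 2 higher and 20 lower. In the unfiltered fit of 81 members 2 were higher and 15 lower, against 9.15% and 4.96% of all genes, with a median of -0.46 against 0.00 for all genes. SNORA12 fell by 1.497 ± 0.13 on the log2 scale (SE), with 26.7 ± 4.60 CPM in D146N fractions 3 and 4 against 79.6 ± 8.80 CPM in WT fractions 7 and 8 (SD, n = 6 each), at an adjusted p of 1.51e-08 by edgeR's quasi-likelihood test. SNORA66 in the ribosomal protein gene RPL5 (-1.21), SNORA28 in EIF5 (-0.92), SNORA59B (-0.84) and SNORA38 (-0.82) also fell. WT fraction 8 replicate 3 held 4.97 CPM of SNORA66, against a median of 1.46 CPM in WT fractions 7 and 8. Leaving out libraries in turn gave -1.33 to -0.94 for SNORA66. The 2 higher members were SNORA23, at 10.3 ± 1.08 CPM in D146N fractions 3 and 4 against 4.38 ± 0.676 CPM in WT fractions 7 and 8 (1.33 ± 0.16 on the log2 scale), and SNORA73A, at 8.56 ± 0.538 CPM against 6.69 ± 0.531 CPM (0.45 ± 0.09). The members did not overlap between these sides in 26 cases below, against 9.80% of 18702 rows, and in 2 cases above, against 3.86%.

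The sides poor in members were compared in the same way. D146N fractions 7 and 8 against WT fractions 3 and 4 gave 2 of 75 members higher, against 6.90% of all genes, and 8 lower, against 10.4% of all genes. Both shares of calls were near the background, but the median log2 fold change of those 75 was -0.36, against 0.008 for all genes. In the unfiltered fit of 81 members 2 were higher and 6 lower, against 3.62% and 5.16%. The higher ones were SNORA53, at 2.41 ± 1.07 CPM in D146N fractions 7 and 8 against 0.905 ± 0.343 CPM in WT fractions 3 and 4, and SNORA25, at 1.60 ± 0.340 CPM against 0.974 ± 0.158 CPM (SD, n = 6 each), and their libraries overlapped. Among the lower ones were SNORA55 (-2.90), SNORA7A in RPL32 (-0.79), SNORA73A (-0.74) and SNORA12 (-0.46). Only 5 were lower without D146N fraction 8 replicate 1.

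Adding the 4 fractions of each replicate number gave a measure that does not depend on the order of these 4 fractions within a genotype. Whether the 4 numbers cover the same positions in both gradients is not given in the sources used here. Exchanged genotype labels would reverse the sign of this measure and cannot be told apart in these files. Of the 81 members, all tested in this fit, 1 was higher in D146N, against 14.9% of 20562 genes, and 33 lower, against 12.5%. The median log2 fold change was -0.55 against 0.01 for all genes. SNORA23 was the higher one, at 6.04 ± 0.163 CPM in D146N against 3.24 ± 0.0871 CPM in WT (0.80 ± 0.09 on the log2 scale). SNORA12 had 33.1 ± 0.851 CPM in D146N against 67.2 ± 0.672 CPM in WT (SD, n = 3 each), a change of -1.12 ± 0.04 (log2, SE) at an adjusted p of 3.58e-12 by edgeR's quasi-likelihood test. SNORA66 (-1.15), SNORA72 (-1.04), SNORA38 (-1.04) and SNORA59B (-1.03) fell by similar amounts, and SNORA55 by more (-2.60). With sums left out in turn, SNORA66 ranged from -1.34 to -0.84. The sums weigh each fraction by its depth, and the sides rich in members differed in depth, with 25998757 and 26129426 counts on average in D146N fractions 3 and 4 and 31204118 and 32408287 counts in WT fractions 7 and 8. The mean of the 4 comparisons by fraction, which weighs fractions equally and was added after the data had been seen, gave 1 higher and 18 lower of 75 members, against 13.5% and 9.66% of all genes, and its 1 higher member was SNORA53. SNORA23 was then at 0.20 ± 0.15 (log2, SE) with an adjusted p of 0.39 by edgeR's quasi-likelihood test, so its call rests on the weighting of fractions. Leaving out WT replicate 3 gave 27 lower.

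**Figure D3:**
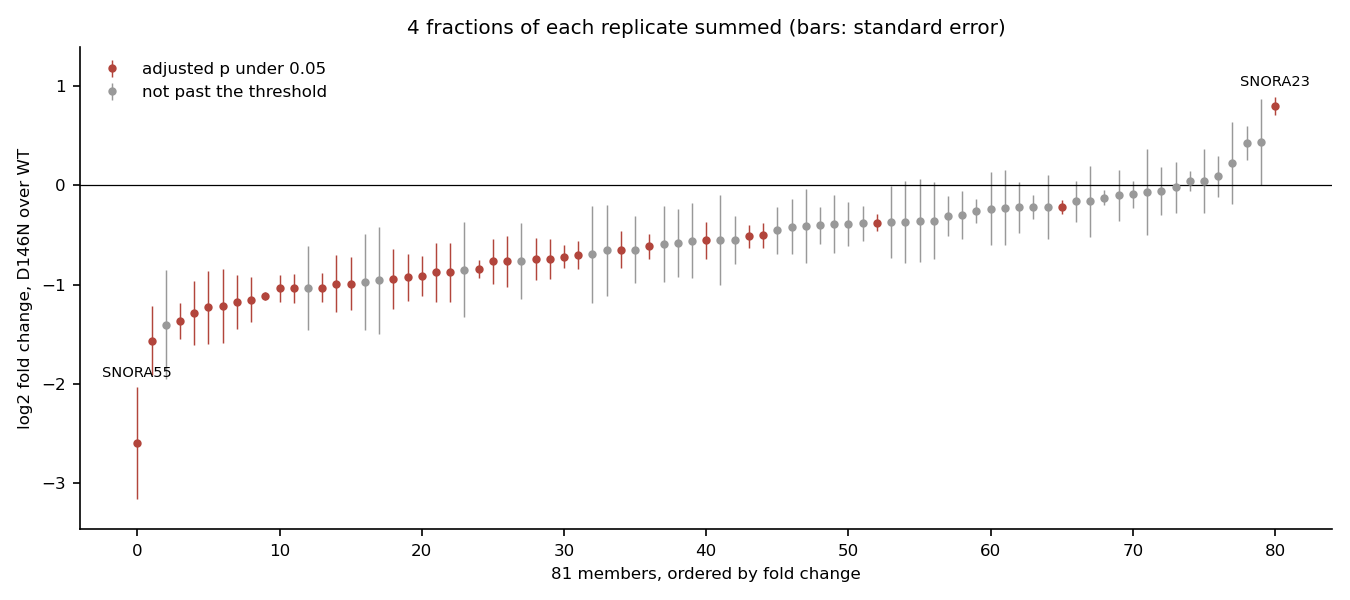
Log2 fold change of D146N over WT with its standard error for all 81 members, after the 4 fractions of each replicate number were summed, in order of fold change. Red points passed an adjusted p of 0.05, 33 of them below 0 and 1, SNORA23, above.

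Host genes were taken as the annotated genes whose span holds the member, whatever the strand. Of the 81 members, 79 had a host, in 59 different genes, and 10 lay within more than 1 gene. Ribosomal protein genes held 17 members, noncoding genes 13 and other coding genes 49. In D146N the median log2 fold change of fractions 7 and 8 over 3 and 4 was -2.46 for members in ribosomal protein genes, -2.25 in noncoding genes and -2.98 in other coding genes, where the medians of the hosts were -4.35, -2.38 and 0.17. In WT the members' medians were 2.56, 2.08 and 3.11 and those of the hosts 4.44, 2.66 and -0.17. Across the 79 members, the member's and the host's fold change had a Pearson correlation of 0.11 in D146N and -0.00 in WT (Spearman 0.06 and -0.03), a description only, since members share hosts and libraries. Medians here are from the unfiltered fit, and differences between the classes were not tested.

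The ratio of member to host within a library does not depend on scaling. For fractions 7 and 8 against fractions 3 and 4, its median log2 change was 1.42 in D146N and -1.57 in WT for ribosomal protein hosts, -0.18 and -0.06 for noncoding hosts, and -2.33 and 2.60 for other coding hosts. Among members in other coding genes, the ratio in fractions 7 and 8 lay below that in fractions 3 and 4 without overlap for 30 and above for 0 of 49 in D146N, and above for 31 and below for 0 in WT. Among those in ribosomal protein genes it lay above for 7 and below for 2 of 17 in D146N, and above for 2 and below for 10 in WT. For SNORA12 and CWF19L1 the log2 ratio was 2.88 ± 0.42, 2.94 ± 0.34, 0.37 ± 0.03 and 0.56 ± 0.26 in D146N fractions 3, 4, 7 and 8, and 0.89 ± 0.20, 0.74 ± 0.08, 4.22 ± 0.33 and 4.26 ± 0.46 in the same fractions of WT (SD, n = 3 each). CWF19L1 itself changed by 0.14 ± 0.09 in D146N and -0.08 ± 0.08 in WT between the sides (log2, SE), and neither passed the test. For SNORA53 and SLC25A3 the change of the log2 ratio was -5.34 in D146N and 6.69 in WT. RPL30, the host of SNORA72, changed by -4.13 in D146N and 4.22 in WT, in the direction of its member and by less.

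**Figure D4:**
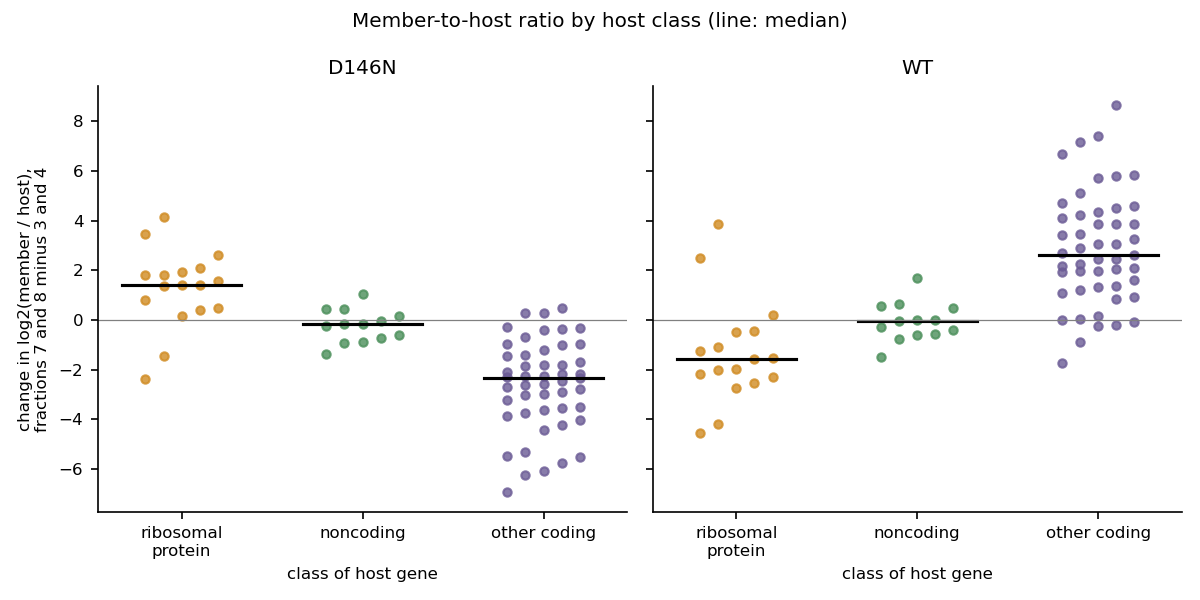
Change of the log2 ratio of member to host, fractions 7 and 8 minus fractions 3 and 4, D146N on the left and WT on the right, 1 point per member by class of host gene, with the median as a line. Points of other coding hosts lie mostly below 0 in D146N (median -2.33) and above 0 in WT (2.60), those of ribosomal protein hosts the other way (1.42 and -1.57), and those of noncoding hosts around 0.

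Genes of the translation machinery often start transcription within a run of pyrimidines, the terminal oligopyrimidine tract, and the host start sites were read for such runs in RefSeq promoters of GRCh38.p14. A run was an unbroken stretch of C or T of at least 6 bases on the gene's strand that reached within 5 bases of the annotated start. It was found in 9 of 13 promoters (69.2%) of ribosomal protein hosts, 4 of 5 (80.0%) of noncoding hosts and 9 of 39 (23.1%) of other coding hosts, against 23.1% of all 35116 promoters. The stretches below reach from 40 bases before the start to 10 after it. All but that of RPL27A belong to hosts of members described here. They are shown to set hosts with a long run beside hosts with a short one. Capitals mark the run as far as the stretch shows it.
CWF19L1, host of SNORA12, chr10:100267629-100267678, minus strand: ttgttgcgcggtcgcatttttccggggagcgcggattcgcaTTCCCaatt
SNHG3, host of SNORA73A and SNORA73B, chr1:28505903-28505952, plus strand: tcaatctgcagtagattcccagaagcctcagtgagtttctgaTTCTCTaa
IPO7, host of SNORA23, chr11:9384612-9384661, plus strand: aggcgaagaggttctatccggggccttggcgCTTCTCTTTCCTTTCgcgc
SLC25A3, host of SNORA53, chr12:98593646-98593695, plus strand: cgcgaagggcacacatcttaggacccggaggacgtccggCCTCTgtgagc
TAF1D, host of SNORA25 and SNORA32, chr11:93741486-93741535, minus strand: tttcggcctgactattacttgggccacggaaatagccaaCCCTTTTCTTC
RPL27A, host of SNORA3A and SNORA3B, chr11:8682752-8682801, plus strand: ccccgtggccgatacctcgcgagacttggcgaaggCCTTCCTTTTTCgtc
TAF1D, a subunit of the RNA polymerase I selectivity factor, has a run of 12 bases, of which the stretch shows 11, and changed by -3.42 ± 0.07 in D146N and 3.95 ± 0.07 in WT (log2, SE). IPO7 has a run of 15 bases and changed by -0.04 ± 0.07 in D146N and -0.27 ± 0.07 in WT. The relation of run length to host change was not tested.

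In 13 hosts that held more than 1 member, 33 members in all, neighbours in 1 gene could be set side by side. In SNHG3, SNORA73B fell by 4.46 ± 0.09 and SNORA73A by 3.71 ± 0.10 in D146N fractions 7 and 8 against 3 and 4, whereas in WT they were higher by 4.47 ± 0.09 and 2.53 ± 0.09 (log2, SE). On unscaled levels the WT medians of SNORA73A were 6.77 CPM in fractions 7 and 8 against 7.51 CPM in fractions 3 and 4, with overlapping libraries, while those of SNORA73B were 42.8 CPM against 13.5 CPM, without overlap. The difference between the 2 RNAs was not tested. SNORA73A and SNORA73B are near-identical copies, and reads shared between copies could have been split in the deposited counts, since whole values, within 0.005, made up only 49.2% of the members' nonzero values.

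The 5 members in TAF1D, SNORA25, SNORA32, SNORA18, SNORA40 and SNORA8, all fell in D146N and rose in WT in the unfiltered fit, with log2 fold changes of -3.63, -4.68, -3.71, -3.00 and -4.09 in D146N and 4.72, 5.65, 3.70, 3.47 and 3.96 in WT. In SNHG17 the 3 members SNORA71A, SNORA71B and SNORA71C did not pass the test in either genotype in the unfiltered fit, with log2 fold changes of -0.43, 0.02 and -0.55 in D146N and 0.82, 0.44 and 0.79 in WT. The filtered fit called SNORA71B higher in WT, at 0.61 ± 0.26 (log2, SE) and an adjusted p of 0.033 by edgeR's quasi-likelihood test. SNORA71B, the most abundant of them, had a median of 2.71 CPM in D146N fractions 7 and 8 against 0.360 CPM in fractions 3 and 4, and of 0.430 CPM in WT fractions 7 and 8 against 1.66 CPM in fractions 3 and 4. Its unscaled level thus moved with that of most genes. On that level the members had no single course. Of them 36 overlapped in both genotypes, 15 went the other way, and 5, SNORA71B among them, went with most genes. SNHG17 changed by -0.60 ± 0.11 in D146N and 1.16 ± 0.11 in WT (log2, SE). SNORA5A and SNORA5C in TBRG4 did not pass the unfiltered test either, at -0.75 and 0.06 in D146N and 0.41 and 0.19 in WT, but the filtered fit called SNORA5A lower in D146N, at -0.87 ± 0.38 and an adjusted p of 0.047 by edgeR's quasi-likelihood test.

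**Figure D5:**
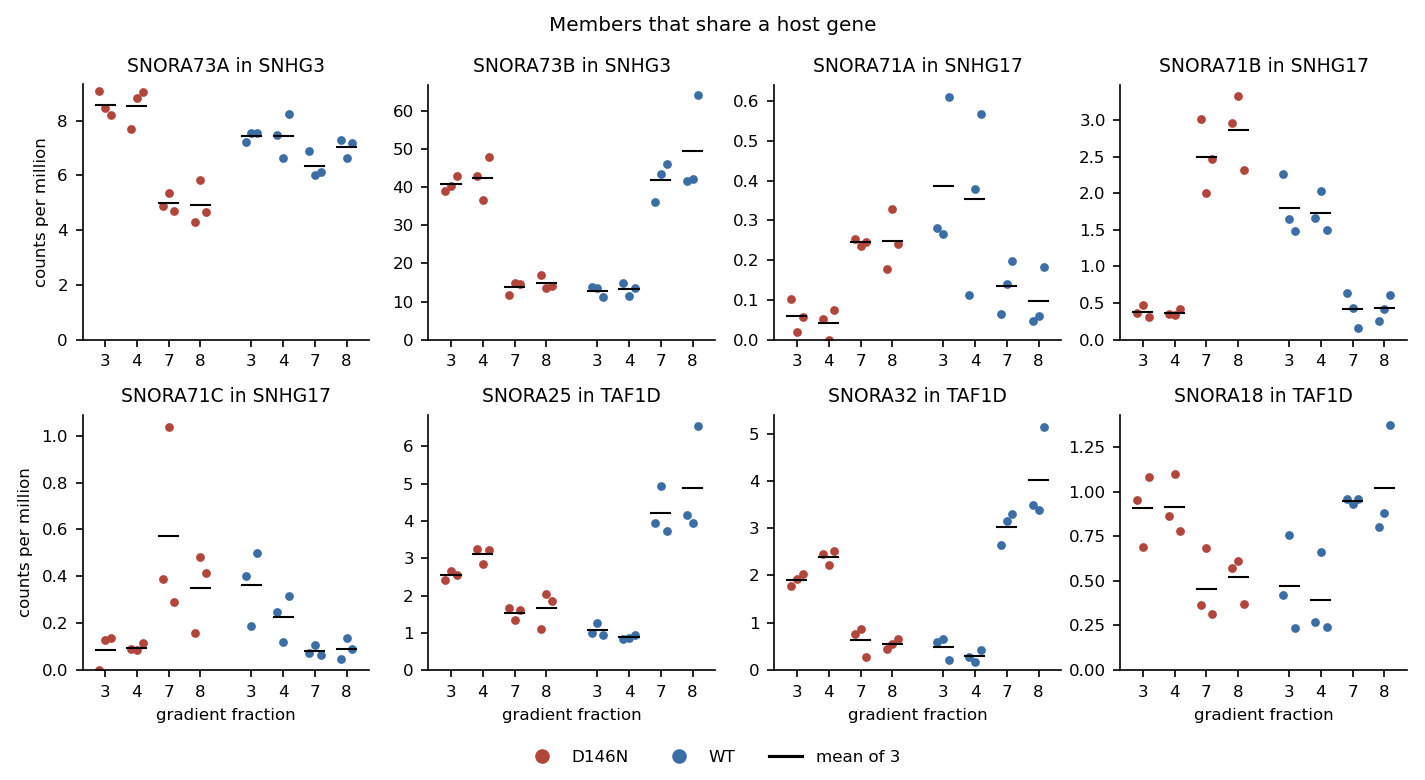
CPM in each library against the gradient fraction for members that share a host, SNORA73A and SNORA73B in SNHG3, SNORA71A, SNORA71B and SNORA71C in SNHG17, and SNORA25, SNORA32 and SNORA18 in TAF1D; D146N is red, WT blue, and lines are means of 3. The SNHG17 members are low where the TAF1D members are high, and SNORA73A varies less between fractions than SNORA73B.

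Partners of the members did not share one course. Of the 4 core proteins, the mRNAs of NHP2 (-2.63 ± 0.06) and NOP10 (-1.59 ± 0.09) were lower and those of DKC1 (0.45 ± 0.06) and GAR1 (0.87 ± 0.13) higher in D146N fractions 7 and 8 against 3 and 4 (log2, SE). In WT NHP2 (2.89 ± 0.06) and NOP10 (2.61 ± 0.09) were higher and DKC1 (-0.61 ± 0.06) lower, and GAR1 (-0.27 ± 0.13) did not pass the test. Of 4 assembly factors, 3 were higher and SHQ1 lower in D146N, and 1 was higher and 3 lower in WT. Of 8 genes of RNA 3' end trimming and decay, 3 were higher and 2 lower in D146N and 3 higher and 4 lower in WT. Of all genes, 29.9% were higher and 30.3% lower in D146N, and 34.6% higher and 39.3% lower in WT. The counts of the 8 genes were near those shares, and none of these lists was tested against them. PARN, a deadenylase that trims H/ACA RNAs, was at -1.54 ± 0.13 in D146N and 2.19 ± 0.12 in WT. After summing of fractions, DKC1 was higher in D146N by 0.15 ± 0.04, GAR1 by 0.70 ± 0.13, and the 2 smaller proteins' mRNAs did not pass the test.

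Other H/ACA RNAs were listed as TERC, the RNA of telomerase, and 13 small Cajal body RNAs. Of these 14, 7 were tested by fraction. In D146N 1 was higher and 6 lower in fractions 7 and 8 against 3 and 4, where 29.9% and 30.3% of all genes were. In WT 6 were higher and 1 lower, where 34.6% and 39.3% of all genes were. TERC averaged 281 and 293 CPM in D146N fractions 7 and 8 against 525 and 503 CPM in fractions 3 and 4, and 732 and 670 CPM in WT fractions 7 and 8 against 247 and 246 CPM in fractions 3 and 4. SCARNA16 had changes of -7.96 ± 0.20 in D146N and 9.80 ± 0.20 in WT, both beyond those of every tested member. SCARNA13 was the exception, at 0.26 ± 0.07 in D146N and -0.17 ± 0.07 in WT. After summing, TERC was lower in D146N by -0.40 ± 0.05 and SCARNA16 by -2.48 ± 0.08, and SCARNA13 higher by 0.48 ± 0.05 (log2, SE).

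Box C/D snoRNAs, which guide ribose methylation, took the same directions. Of 100 SNORD rows over the same minimum, 86 passed the filter, and 0 were higher and 66 lower in D146N fractions 7 and 8 against 3 and 4, against 29.9% and 30.3% of all genes. In WT 66 were higher and 2 lower, against 34.6% and 39.3%. Their medians were -1.89 in D146N and 1.90 in WT over those tested, and no test of the difference from the H/ACA members was made. In the summed fractions 0 of 100 SNORD rows were higher in D146N and 35 lower, against 14.9% and 12.5% of all genes, with a median of -0.53.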

How the data were processed

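The authors deposited expected counts per gene, not normalized, for 61853 Ensembl genes in 24 libraries. Bowtie2 2.3.5, HISAT2 2.1.0, SAMtools and featureCounts 1.5.1 are named per the submitters' processing notes, with the build hg38; their roles and options are not given in the sources used here, nor is the use of strand. Of nonzero values 73.3% were whole within 0.005; all were rounded to whole numbers before fitting. Symbols matched 99.9% of rows. Members, lists, the host classes and the comparison of unlike fraction numbers were chosen with earlier results of these data known.

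Tests used edgeR 4.0.16 (R 4.3.3) with TMM, filterByExpr, a quasi-likelihood fit with robust dispersions on the 8 groups and Benjamini-Hochberg adjustment over all 18907 genes tested, called at an adjusted p under 0.05. The biological coefficient of variation was 13.8%. Standard errors (SE) of log2 fold changes were derived from the test, as the absolute fold change divided by the square root of its F statistic. DESeq2 1.42.0 was an alternative, besides other scalings, no filter, a replicate block, a minimum of 1000 counts and leaving out each library. The fits were tested on simulated data. Labels call replicates biological; for shares of counts a two-sided exact permutation test was used. Host genes came from RefSeq spans on GRCh38.p14; strand was not used, although same-strand hosts had been planned, and the gene with most counts was taken where several spanned a member. Host ratios used a pseudocount of 0.5 counts. Named are the 12 members highest per length, up to 5 members each way per comparison with the largest called change, at least 1 CPM and no overlap, members called against the majority, and paralogues or members of 1 host chosen for comparison; members beyond these were chosen after their values were seen.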

Additional observations from a re-analysis of the deposited data

Results flagged for a closer look

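The fraction contrast of 66 members differed between the genotypes in edgeR's interaction test, all lower in D146N minus WT. Most genes turned round between the genotypes, and a reversed fraction order or exchanged labels in 1 genotype cannot be told apart from an effect of D146N here. Among the 12 members most abundant per length, the log2 interaction was -5.66 for SNORA12, -8.93 for SNORA73B, -7.78 for SNORA28, -8.96 for SNORA74A, -6.24 for SNORA73A and -10.32 for SNORA23. It was -7.34 for SNORA57, -3.87 for SNORA21, -5.77 for SNORA74D, -10.5 for SNORA53, -8.63 for SNORA25 and -5.98 for SNORA24. These values are relative to the typical gene. Groups of 3 libraries are too small for a test of single outlying samples.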

How the results depend on the processing

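Scaling decided most counts. Given as members higher and lower in D146N against WT, library totals gave 20 and 23 in fraction 3, 18 and 19 in fraction 4, 11 and 27 in fraction 7, and 8 and 35 in fraction 8. For fractions 7 and 8 against 3 and 4 they gave 19 and 24 in D146N, 35 and 16 in WT, and 25 and 32 in the interaction. Totals without small and mitochondrial RNA rows gave 34 and 6, 35 and 6, 6 and 46, and 3 and 45 in fractions 3, 4, 7 and 8, then 7 and 45 in D146N, 46 and 9 in WT, and 11 and 52 in the interaction. The shares of all genes there were 9.71% and 73.1%, 9.61% and 72.5%, 74.8% and 11.0%, and 72.6% and 11.8% by fraction, then 78.2% and 10.8%, 13.8% and 76.4%, and 79.4% and 13.7%. The member-rich sides then had 10 lower, against 5.41% of all genes, and the member-poor sides 5 lower, against 7.96%. The sums then had 2 higher, against 29.6% of all genes. Library totals also gave 5 lower between the poor sides and 2 higher in the sums, for which the shares of all genes are not given here. Under library totals SNORA12 reversed to 0.62 in D146N, SNORA21 to 1.02 in D146N, -0.71 in WT and 1.73 in the interaction, SNORA73A to -0.16 in WT and SNORA74D to 0.052 in D146N. Only 17 members reached 1000 counts: all 17 were called in each of the 7 comparisons by fraction, and 8, 4 and 11 were lower between rich sides, poor sides and sums, with 0 lower in WT. DESeq2 also gave 0 lower in WT. The mean of the 4 fraction comparisons gave 18 lower in place of 33. The cause was not tested.

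Leaving out libraries in turn, fraction 3 had 52 to 55 higher and 0 to 1 lower, fraction 4 54 to 56 higher, fraction 7 58 to 63 lower and fraction 8 61 to 65 lower. The D146N contrast had 58 to 63 lower, the WT contrast 62 to 67 higher and 0 to 1 lower, the interaction 64 to 68 lower, the rich sides 14 to 22 lower, the poor sides 5 to 9 lower and the sums 25 to 29 lower. Deviations of same-numbered libraries correlated at -0.133 to 0.0647 within a genotype, so no shared deviation by replicate number was seen. Whether same-numbered libraries came from 1 culture is not given in the sources used here. With the replicate number as a block, counts were 53 and 54 higher in fractions 3 and 4, 59 and 63 lower in fractions 7 and 8, 61 lower in D146N, 65 higher in WT, 66 lower in the interaction, 20 and 7 lower between rich and poor sides and 32 lower in sums. The median-of-ratios factors and the unfiltered fit kept every count within 1.5 times. Depth limits the 59 members under 1 CPM.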
